A study of Mus musculus and Rattus norvegicus with 4 samples.

Results

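A-kinase anchoring proteins are scaffolds that bind the regulatory subunits of protein kinase A, the kinase activated by cyclic AMP, and hold it beside its substrates and beside the phosphatases and phosphodiesterases that limit its signal. Different family members place the kinase at different sites, such as the nuclear envelope, mitochondria, Golgi or cell membrane. In striated muscle, anchored kinase A acts on calcium channels and contractile regulation, and the Akap6 scaffold also binds calcineurin, a phosphatase that activates MEF2 factors.

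The genes described are Akap6, Pakap, Akap1, Akap5, Akap7, Akap9, Akap11, Akap12 and Akap13, 9 of the 21887 protein-coding genes of the RefSeq table. They were listed by name, and the family was chosen by the scores of the Akap6 and Pakap peaks, which are among the strongest of the list, so those scores are given as a description. The binding of MEF2A, a transcription factor of muscle, was mapped by ChIP-exo, in which an exonuclease trims the immunoprecipitated DNA towards the edges of the bound protein. The cells were C2C12, a single mouse skeletal myoblast line, kept for 48 h in differentiation medium with 2% horse serum. The series holds 4 libraries, with MEF2A and normal rabbit IgG antibodies in C2C12 cells and in primary rat cardiomyocytes. The C2C12 MEF2A list of 2797 peaks, from 1 library, is the one used.

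Each peak carries the authors' score, which is higher for stronger peaks and ran from 50.1 to 3100 with a median of 77.0. Read depth is unknown and there is no replicate, so no value carries an error and no test was made. A peak was given to the protein-coding gene whose span was nearest, up to 100 kb away, with distance 0 inside the span. A peak near a gene does not show that the gene is regulated. Peaks carry no expression values, so the muscle identity of the cells could not be read from marker transcripts. Of 8 muscle genes looked up, Des, Acta1, Mylpf, Tnni1 and Tnnt3 had an assigned peak, and Myod1, Myog and Ckm had none. Among all protein-coding genes 7.73% had one. Top scores were 925 at Des and 82.5 at Mylpf, but below the median at Tnnt3 (76.7), Acta1 (69.5) and Tnni1 (51.3).

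MEF2A peaks were found at 4 of the 9 anchoring protein genes, which together held 10 of the 2797 peaks. Pakap had 6, Akap13 had 2, and Akap6 and Akap9 had 1 each. No peak was assigned to Akap1, Akap5, Akap7, Akap11 or Akap12. Over all protein-coding genes 7.73% had an assigned peak, and 4.57% had a peak inside the span. Nothing is read from the difference because peaks helped to choose the family. All 10 peaks lay inside the spans of their genes, whereas 57.1% of the assigned peaks of the list did. Long genes more often held their peaks inside. Of the 196 genes of 300 kb or more with an assigned peak, 169 had one inside the span. Among the 234 such genes under 10 kb, 56 did. The part of gene length in this contrast was not tested. The scores were very unequal, with 2 peaks at 2067 and 1711 and the other 8 between 50.4 and 209.5. A score of 100 or more was held by 5 peaks, in Akap6, Pakap and Akap13 (3.47% of all genes had such a peak). A score of 200 or more was held by 3, in Akap6 and Pakap (1.53% of all genes). Of the 10 peaks, 5 scored below the median of the list.

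**Figure D1:**
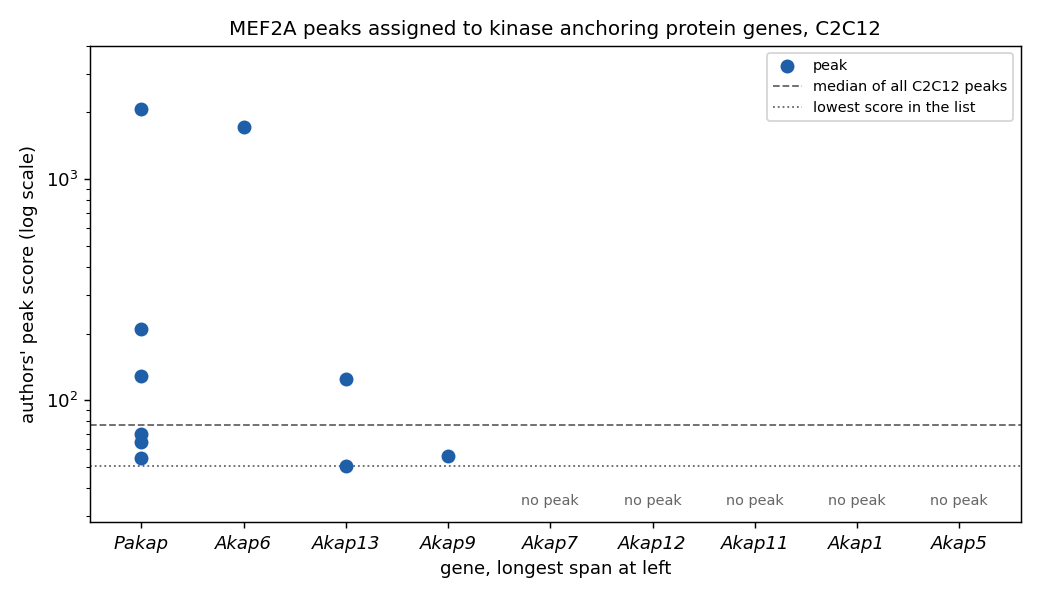
The authors' score of each C2C12 MEF2A peak (log axis) for the 9 genes, ordered from the longest span at the left, with 1 point per peak and lines at the median and the lowest score of the list. Single peaks of Pakap (2067) and Akap6 (1711) stand far above the rest, and the 5 genes with the shortest spans have no peak.

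To show the DNA at the starts nearest to the peaks, the 250 bases before 3 annotated start sites are given below (RefSeq, GRCm38.p6, the assembly behind mm10). They are the Akap6 start (chr12:52699133-52699382), the Pakap start closest to a peak (chr4:57567580-57567829) and the Akap9 start, which has the nearest peak of any member start (chr5:3927936-3928185). All 3 lie on the plus strand, and capitals mark E-boxes, CANNTG, the core site of muscle basic helix-loop-helix factors.
Akap6: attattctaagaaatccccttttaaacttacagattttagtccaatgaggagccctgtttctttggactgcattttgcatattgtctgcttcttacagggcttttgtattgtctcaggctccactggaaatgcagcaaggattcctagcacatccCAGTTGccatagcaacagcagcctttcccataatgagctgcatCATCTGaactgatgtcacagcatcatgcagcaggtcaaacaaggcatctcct
Pakap: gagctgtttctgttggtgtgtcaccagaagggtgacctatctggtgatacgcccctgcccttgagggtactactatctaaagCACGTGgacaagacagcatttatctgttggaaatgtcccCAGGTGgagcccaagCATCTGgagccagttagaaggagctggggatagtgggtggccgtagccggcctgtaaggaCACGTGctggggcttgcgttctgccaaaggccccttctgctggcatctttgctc
Akap9: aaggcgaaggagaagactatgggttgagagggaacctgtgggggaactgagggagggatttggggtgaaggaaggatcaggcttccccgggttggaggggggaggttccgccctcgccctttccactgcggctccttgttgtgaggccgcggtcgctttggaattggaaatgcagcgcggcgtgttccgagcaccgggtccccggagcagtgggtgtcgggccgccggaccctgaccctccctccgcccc

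No member peak overlapped any start window, and the bases under the member peaks were not analysed here. The MEF2 consensus (CTA, then a run of A or T, then TAG) was searched on both strands of the 250 bases before each start. It was in none of the 16 member windows, which belong to 8 of the 9 genes, and in 0.509% of the 32841 windows of that length. A looser form, with C or T first and A or G last, was also in none of the 16 and in 2.92% of all windows. E-boxes were in 13 of the 16 and in 66.2% of all. Every match to the consensus is also a match to the looser form.

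The member starts differed in base composition. The Akap6 window was 43.6% G or C with no CpG, against a median of 52.4% and 6 CpG dinucleotides over all windows. At the Akap9 window the share was 65.6% with 18 CpG, and at the Akap13 window 58.4% with 10. Windows of Pakap ran from 48.4% at its last start to 76.8% at the start at 57568248, next to the one printed, the highest of the 16. Among genes without a peak, the windows ran from 34.4% with no CpG, at an Akap11 start and the lowest of the 16, to 72.4% at an Akap1 start. The ranges of the genes with and without a peak overlapped.

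Akap6 encodes the scaffold that gathers kinase A, a phosphodiesterase and calcineurin at the nuclear envelope of muscle cells. Its gene (chr12:52698588-53155568, plus strand) is 457.0 kb long and held a single peak, at chr12:52854425-52854951. The peak was 527 bp wide, against a median of 144 bp in the list and 447 bp among its 200 highest-scoring peaks. Its score of 1711 ranked 9 of 2797. The peak lay 155.3 kb downstream of the annotated start, 34.2% of the way along the span from its 5′ end. The next peak outside the gene, 176.3 kb beyond its 3′ end, scored 71.4 and lay inside Npas3. Akap6 was thus a gene with 1 strong, isolated peak. Of the 1263 genes with exactly 1 assigned peak, 4 had a higher score.

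Pakap joins the former Palm2 and Akap2 genes, which encode a paralemmin-type protein and an anchoring protein, in a single unit. The spans used do not separate these parts, so its peaks were not divided between the former genes. Its span (chr4:57434475-57896984, plus strand) is 462.5 kb and carries 5 annotated starts, at 57434475, 57567830, 57568248, 57845248 and 57854562. The strongest peak, at chr4:57588171-57588938, was 768 bp wide and scored 2067, the same as 1 other peak, at rank 6. It lay 20.3 kb downstream of the start at 57568248, which is 1 of a close pair of starts inside the gene. The peak stood 33.3% of the way along the span from its 5′ end. A second peak followed after a gap of 26 bp (chr4:57588965-57589082) and scored only 64.3. Whether the pair is 2 sites or 1 region divided by the peak caller cannot be told from the list.

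The other Pakap peaks lay on both sides of that pair. Upstream of the start at 57567830, a peak at chr4:57550122-57550476 scored 209.5 at 17.5 kb and a peak at chr4:57560145-57560360 scored 128 at 7.58 kb. These scores come next below the strongest, so the 3 strongest Pakap peaks fell on both sides of its internal pair of starts. Farther along, peaks at chr4:57768512-57768620 and chr4:57797970-57798108 scored 54.65 and 69.9. They lay 76.7 and 47.2 kb upstream of the start at 57845248, and both scores were below the median of the list. The nearest peak outside the gene was 378.6 kb away. With 6 peaks Pakap was 1 of 9 protein-coding genes (0.0411%) with 6 or more, and 6 genes had more. That cutoff is its own count, and Pakap would fall below it if the close pair of peaks were 1 region. Its span is also long, with 1.21% of protein-coding genes at least that long.

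**Figure D2:**
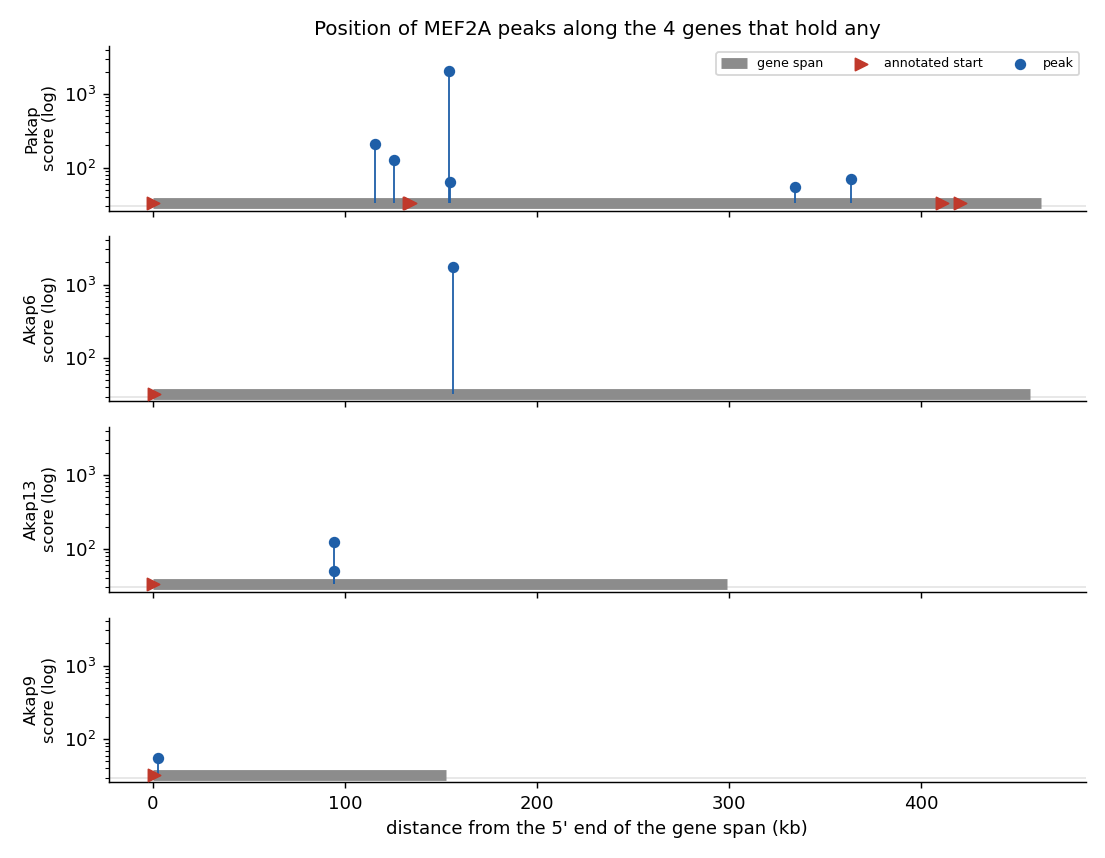
Peaks along the 4 genes that hold any, with distance from the 5′ end of the span in kb on the horizontal axis and the authors' score on a log axis; grey bars are gene spans and red arrowheads annotated starts. The strong peaks of Pakap and Akap6 lie 154.1 and 156.1 kb into their genes, and the Akap9 peak is next to its start.

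Akap13 encodes a large scaffold that, besides kinase A, binds protein kinases C and D and is expressed in heart and skeletal muscle. Its gene (chr7:75455526-75754609, plus strand) is 299.1 kb long. A pair of peaks lay 94.3 and 94.5 kb downstream of the annotated start. The first (chr7:75549777-75549871) scored 50.4, among the lowest of the list at rank 2783, and the second (chr7:75549924-75550117) scored 125. The gap between them was 52 bp, equal to the median gap of the 237 neighbouring peaks of the list that lay under 1 kb apart. No other peak was found within 996.9 kb of the gene. Akap13 therefore had a single pair of peaks, the higher of moderate score. As for Pakap, whether the pair is 2 sites or 1 divided region cannot be told from the list.

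Akap9 encodes a large scaffold of the Golgi and centrosome, of which a shorter form binds potassium channels. Its gene (chr5:3927736-4080204, plus strand) is 152.5 kb long. Its peak (chr5:3930556-3930667) was 112 bp wide and scored 55.8, at rank 2325. It lay 2.42 kb downstream of the annotated start and also inside Gm51438, a long noncoding RNA gene within the same locus. It was the only 1 of the 10 member peaks within 5 kb of a start of its gene. Over the 1020 pairs of a peak and the gene around it for which a start was annotated, 18.2% were that close and the median distance was 31.5 kb.

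The strongest peaks of Pakap, Akap6 and Akap13 stood at 33.3%, 34.2% and 31.6% of their spans from the 5′ end. This likeness was noticed after the values were seen. The bounds of 30 and 35% used here were set around those values, so the shares that follow only describe the list. Of all peaks inside a gene with an annotated start, 5.20% lay between 30 and 35% of the span. Of the 10 member peaks 8 lay in the first 35%, where 38.4% of the inside peaks of the list lay. The 10 are not independent, since 6 share a gene and 4 of the 10 form close pairs.

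Of the 5 genes without a peak, Akap1 tethers kinase A to the outer mitochondrial membrane. Its span (chr11:88830792-88864596) is 33.8 kb, and the nearest peak, 271.1 kb away inside Msi2, scored 56.0. Akap5, a membrane scaffold that binds kinase A, protein kinase C and calcineurin, is the shortest at 9.9 kb (chr12:76324617-76334517). Its nearest peak was 621.7 kb away and scored 60.9. Akap7, which links kinase A to voltage-gated calcium channels, spans 130.1 kb (chr10:25169090-25299217), with the nearest peak 348.5 kb away inside Enpp3 at a score of 57.1. For each of these 3 genes the nearest peak scored below the median of the list.

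Akap11, a scaffold that also binds protein phosphatase and glycogen synthase kinase, came closest to the distance limit. Its span (chr14:78492246-78536980) is 44.7 kb, and a peak of score 229 lay 122.9 kb away on the lower-coordinate side, nearer to Tnfsf11. Akap12, encoding gravin, a scaffold for kinase A and protein kinase C, spans 93.1 kb (chr10:4266329-4359471). The nearest peak was 2716.6 kb away, the greatest distance of the 9 genes. No neighbour of these 5 genes held a peak within 100 kb of them. The member peaks lay at distance 0 and the next nearest at 122.9 kb (Akap11) and 125.4 kb (Akap9, score 53.9), so none was near the limit of assignment.

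The 4 genes with a peak were the 4 longest of the 9, from 152.5 to 462.5 kb, and the 5 without were from 9.9 to 130.1 kb. Length also went with peaks over all genes. A peak was assigned to 2.95% of genes with spans under 10 kb, 10.1% of those from 30 to 100 kb, 22.7% of those from 100 to 300 kb and 35.2% of those of 300 kb or more. Among genes at least as long as Akap9, 30.7% had an assigned peak, and among shorter genes 6.13%. Akap6 and Pakap belong to the 557 genes in the longest class. The part of gene length in the division of the family was not tested.

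**Figure D3:**
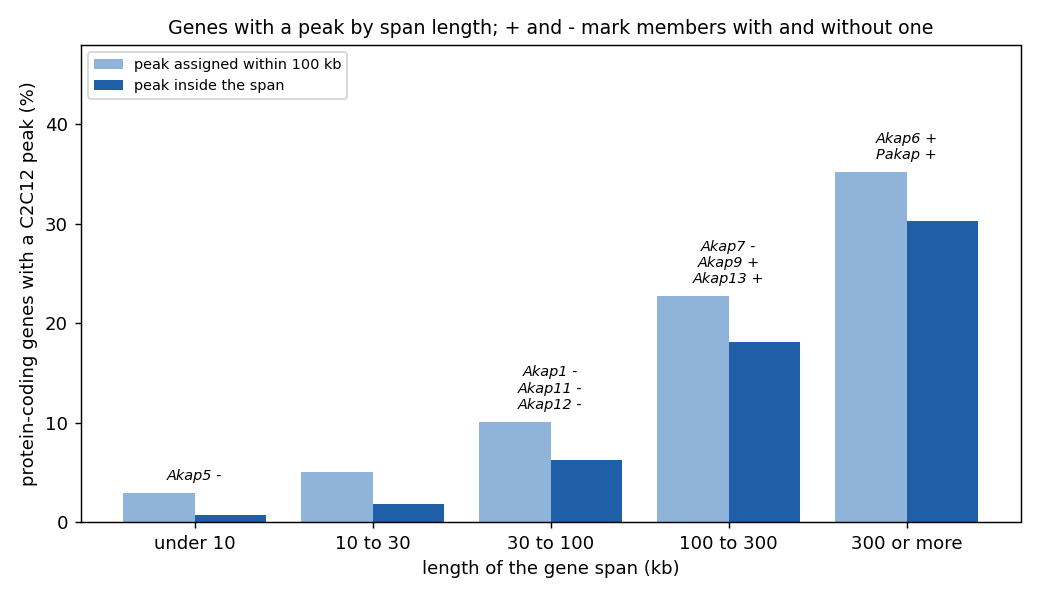
Share of protein-coding genes with a C2C12 MEF2A peak assigned within 100 kb (light bars) or inside the span (dark bars) by span length in kb, with the 9 genes written over their class and marked + or - for having a peak. The light bars climb from 2.95% to 35.2%, and the genes marked + are in the 2 longest classes.

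Measured to the nearer end of a span instead of to the span, 6 of the 10 peaks were past the limit. The strong Akap6 peak was 155.8 kb from an end and the strong Pakap peak 153.7 kb. Under that rule Akap6 had no peak, Pakap kept only its peak of score 69.9, at 98.9 kb, and Akap9 and Akap13 kept theirs, which left 4 peaks in 3 genes. No other annotated gene overlapped either peak.

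Peaks of like score, closest in rank to those of Akap6 and Pakap, were at genes of other kinds. Above the Akap6 peak stood a peak inside Mtus1 (1891), which encodes a microtubule-associated protein, and below it a peak 78.9 kb from Crygf (1677), a lens crystallin gene. The Pakap peak shared its score with a peak 42.2 kb from Tex44, and the peak ranked above both was 3.03 kb from Dot1l (2172). The Akap6 peak was narrower than those 2 peaks around it, at 527 bp against 658 and 703 bp.

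The rest of the pathway was examined with 4 lists of genes, beside the 7.73% of all protein-coding genes with a peak. Among 22 other anchoring protein genes, 2 had a peak, 1 of them inside the span. Ezr, encoding ezrin, which links actin to the membrane, had a peak of score 342 at 44.9 kb. That peak overlapped the start of Gm2885, a noncoding RNA gene. Myrip, encoding a scaffold of secretory granules and melanosomes, held a peak of 73.8. No peak was assigned to Akap3, Akap4, Akap8, Akap8l, Akap10, Akap14 or Akap17b, nor to the muscle anchoring proteins Synm and Cmya5. Akap2 and Palm2 were in that list too and were found only as synonyms of Pakap. The other anchoring genes thus had peaks at close to the share of all genes.

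Of the 9 genes for subunits and inhibitors of kinase A, 3 had a peak. Pkia, encoding the inhibitor of the catalytic subunit best known from muscle, held a peak of score 114. Pkig, a second inhibitor, held a peak of 52.3, and Prkar2b, a type II regulatory subunit of the kind that anchoring proteins bind, had a peak of 76.2 at 38.2 kb. No catalytic subunit gene had a peak. Each of the 3 peaks was far weaker than the Akap6 peak and the strongest Pakap peak, but nothing is read from this. Those strong peaks chose the family and ranked 9 and 6 of the whole list, so almost any peak scores below them. The weakest Pakap peak, at 54.65, scored below those of Pkia and Prkar2b.

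Among 36 genes listed as enzymes and partners of anchoring proteins, 5 had a peak. Adcy8, an adenylyl cyclase that makes cyclic AMP, had the strongest at 544, but 76.7 kb from the gene. Rcan1 and Rcan2, regulators of calcineurin, had 2 and 3 peaks with top scores of 119 and 164. They are in the list by way of calcineurin, which the Akap5 and Akap6 scaffolds bind, and not as anchored enzymes. Prkca, a protein kinase C gene, held a peak of 55.2. The ryanodine receptor, calcineurin subunit and type 4 phosphodiesterase genes of the list, and Syne1, whose product anchors the Akap6 protein at the nuclear envelope, had none.

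Of the 8 MEF2 and class IIa deacetylase genes, 3 had a peak. Hdac5 and Hdac9 encode deacetylases that repress MEF2 factors. Hdac5 held a peak of 195, and Hdac9 held 2, of 79.5 and 80.2. Mef2c had 3 peaks, of which 1, of score 66.2, lay 42.0 kb outside the gene. The others, of 51.0 and 100.2, lay side by side inside it. Whether these and the neighbouring Hdac9 peaks are separate sites or divided regions cannot be told from the list. The first Hdac9 peak (chr12:34528818-34529135) lay over an annotated start of Hdac9, and 246 of its bases are in the window before that start. This window (chr12:34528890-34529139, minus strand) is shown because it gives bases under a peak of the pathway, with the peak in capitals.
Hdac9: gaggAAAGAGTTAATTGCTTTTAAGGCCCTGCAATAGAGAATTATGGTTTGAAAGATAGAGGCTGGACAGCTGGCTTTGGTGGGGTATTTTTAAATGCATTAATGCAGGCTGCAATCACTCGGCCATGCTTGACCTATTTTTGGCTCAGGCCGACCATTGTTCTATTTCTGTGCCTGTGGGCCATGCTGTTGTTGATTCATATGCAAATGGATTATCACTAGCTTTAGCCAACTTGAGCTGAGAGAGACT

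The window held neither form of the MEF2 site and had 3 E-boxes. The 4 lists are small, and their genes are long, with median spans from 49.9 to 118.5 kb beside 17.2 kb for all protein-coding genes and 130.1 kb for the 9 anchoring protein genes. Of all genes with spans from 30 to 100 kb, 10.1% had an assigned peak, and of those from 100 to 300 kb, 22.7%. The part of length in the counts of the lists was not tested.

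**Figure D4:**
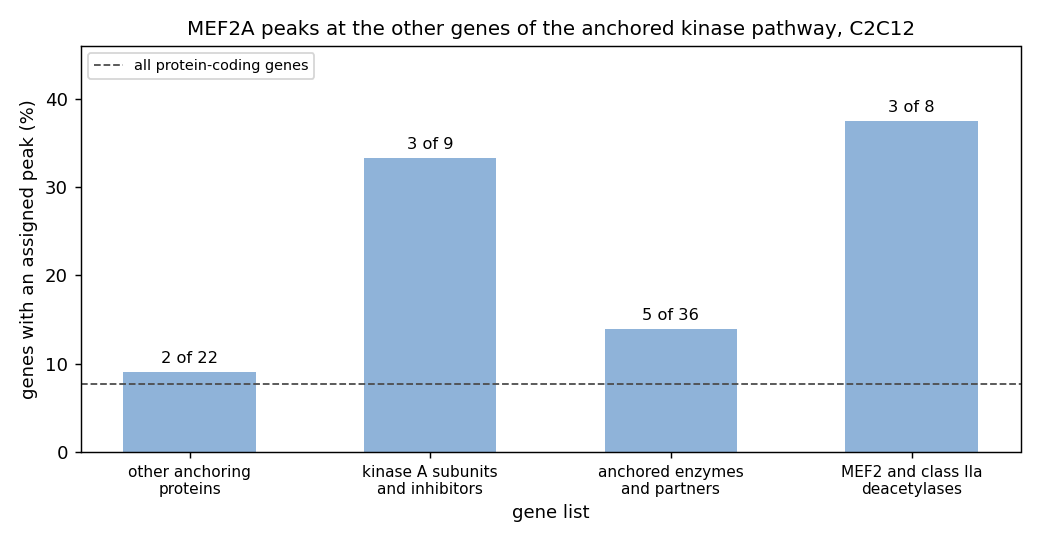
Share of genes with an assigned C2C12 MEF2A peak in each of 4 pathway lists, with the count above each bar and a dashed line at the share of all protein-coding genes (7.73%). The other anchoring protein genes are close to the line, at 2 of 22, and the 3 other lists are above it with 3 to 5 genes each.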

How the data were processed

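The C2C12 file is a list of peaks with a score for each, as the authors deposited it, with no header and from a library that was not pooled. MACS 1.4.2, SAMtools, Picard, BWA 0.5.9, CASAVA 1.7.0 and the build mm10 are named, per the submitters' processing notes. Settings, the scale of the score and the use of IgG as control are not given in the sources used here. Only peaks past a threshold are listed, so weaker sites are not seen. Start positions were taken to count from 0, as in a BED file, and moved to count from 1.

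Spans and the 300-base windows around starts (250 before, 50 after) came from RefSeq, GRCm38.p6, without exons. The windows gave strand and start sites, and distances to starts are from the middle of a peak. A peak inside several spans counted for each gene. The rat list and the IgG libraries were not analysed here. Members and lists were chosen with earlier results of these data known. Named genes are all members, every listed gene with a peak except 1 that is not reported here, and the peaks next in rank to those of Akap6 and Pakap. The muscle genes, nearest outside peaks, span classes and positions within spans were added as description, and listed genes without a peak are named without values. Assignment was tested only on simulated peaks at the centres of spans, and the motif search only on a planted MEF2 consensus. Distances outside spans, the looser form and the E-box were not tested in this way. Python 3.11.15, numpy 2.4.6, pandas 2.3.3 and matplotlib 3.10.9 were used.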

Additional observations from a re-analysis of the deposited data

How the results depend on the processing

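The count of 4 genes was kept, with the same genes, when peaks under 1 kb apart were merged (8 peaks in place of 10). It was also kept when the limit was 10 or 50 kb, and when peaks went to annotated genes of any kind. All 10 peaks lie inside the spans, so none of these settings could take a gene out. The share of all genes with a peak was 7.73% after merging, 5.75% within 10 kb and 7.13% within 50 kb. With annotated genes of any kind it was 4.36%. With scores of 100 or more, 5 peaks in 3 genes were left, and Akap9 had none, while 3.47% of all genes had a peak. With scores of 200 or more, 3 peaks in 2 genes were left, Akap6 and Pakap, and 1.53% of all genes had a peak. These settings remove peaks by construction. With distance taken to the nearest end of a span, 4 peaks in 3 genes were left, without Akap6. Without depth or a replicate library, nothing shows whether the 5 member peaks under the median score would recur. No paired analysis was possible because there is a single library for every antibody and cell type.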
